A study of Mus musculus with 6 samples.

Results

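The lecticans, the enzymes that make hyaluronan and the cell-surface proteins that bind this matrix were followed in cultured mouse astrocytes after transfection with miR-29. The set holds 9 genes: the lecticans Vcan, Ncan, Bcan and Acan, the link protein gene Hapln1, the hyaluronan synthases Has2 and Has3, and the receptors Cd44 and Ptprz1. Members were taken as all non-control probes whose RefSeq accession, with the version dropped, matches one of these symbols, which gave 16 of 41174 probes; the 9 genes are among 18353 named genes with a probe. Gene expression was read on 6 Agilent arrays covering the mouse genome, each with 1 colour and 1 sample. The cells were primary cortical astrocytes of C57BL/6 mice at embryonic day 18, from a commercial supplier. The miR-29 group, 3 arrays, received Pre-miR precursors of the family members 29a, 29b and 29c, mixed in parts of 1, 2 and 1. The control group, also 3 arrays, received the Pre-miR Negative Control1. In both groups the dose was 80 nM, given 3 weeks after plating with RNAiMax, and cells were collected 48 h later. All arrays therefore carry a transfected small RNA, and an untransfected culture was not analysed here. The replicates are repeated RNA extractions. Nothing in the labels places them in separate cultures. The p-values below thus reflect the variation among these extractions, which may be purely technical.

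Lecticans are large chondroitin sulfate proteoglycans. Their N-terminal domain binds hyaluronan, a long sugar polymer that hyaluronan synthases extrude at the plasma membrane, and link proteins such as HAPLN1 clamp the complex together. In brain this lattice fills the space between cells and condenses around some neurons as perineuronal nets, and astrocytes are a source of versican, neurocan and brevican. CD44 anchors hyaluronan to the cell surface, and PTPRZ1 is a receptor tyrosine phosphatase that itself carries chondroitin sulfate chains. MicroRNAs bind messenger RNAs mainly through their seed and lower them.

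The agent is shown by the mature sequences of the mouse miR-29 family, taken from RefSeq (build GRCm38.p6), because all 3 share the seed at bases 2 to 8, printed in capitals. The precursors used were the human ones, whose sequences are not printed here.

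mmu-miR-29a-3p: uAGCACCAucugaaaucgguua

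mmu-miR-29b-3p: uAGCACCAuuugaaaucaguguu

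mmu-miR-29c-3p: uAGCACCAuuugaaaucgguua

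Of 1679 mature mouse miRNA names in the table, these 3 hold that seed. Counted from the 5′ end, miR-29c differs from miR-29a by C10U, and miR-29b differs from it by C10U, G18A, U21G and A22U, with 1 more base at its end (23 against 22). The mature miR-29a sequence lies at chr6:31062673-31062694 on the minus strand and that of miR-29c at chr1:195037600-195037621 on the plus strand. The mature sequences of the miR-29b copies lie at chr6:31063025-31063047 and chr1:195037091-195037113.

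On each array the share of probes well above background was 61.9% to 66.8%, and 0 spots were saturated. Control replicate 1 shared slide 1 with the whole miR-29 group, whereas control replicates 2 and 3 were on slide 2. All 9 astrocyte markers were above background, among them Gfap and Slc1a3; 5 rose, 1 fell and 3 did not pass. Their summed signal was 31585 to 33363 on the miR-29 arrays and 18720 to 19573 on the control arrays. Markers of oligodendrocyte precursors, cells that also make neurocan, brevican and PTPRZ1, were present too: of 5 tested 3 fell and 2 rose. Their summed signal was 1295 to 1325 against 1409 to 1435, and Gpr17 did not pass the detection filter described below. Of 8 fibroblast and mural markers 5 rose and 1 fell, with sums of 302679 to 329150 against 191453 to 215854. Of 4 oligodendrocyte markers 2 rose and 1 fell (2799 to 3080 against 2738 to 5276), and Mog did not pass that filter. Of 8 neuron markers 3 rose and 3 fell (3755 to 3872 against 4692 to 4967), and Snap25 and Gad1 did not pass it. Of 3 microglia markers 1 rose and 2 fell (1736 to 1870 against 2329 to 2646), Cd68 had no probe, and Aif1, Itgam and Cx3cr1 did not pass that filter. Of 4 endothelial markers 2 rose and 1 fell (983 to 1051 against 1156 to 1373), nor did Pecam1, Cldn5 and Tek pass it. Over all 13716 named genes tested, with the brightest probe of each, 25.3% were lower and 36.5% higher. No test was made on the marker counts. The sums given for the markers add intensities, so bright genes outweigh dim ones. In the microglia sum Tmem119 alone read 1685 to 1802 after miR-29 and 2225 to 2589 in the controls. Acta2, Tagln and Cnn1 made most of the fibroblast and mural sum, Mag of the oligodendrocyte sum and Flt1 of the endothelial sum. A sum is thus not the level of a cell type. Some marker calls also varied with the probe or the settings. Csf1r was lower with its brightest probe and higher with another (0.36). Pdgfra and Gad2, counted as lower, did not pass with their other probes (0.10 and -0.040). Of 17 alternative settings, P2ry12 kept its call in 10, Sox10 in 8 and Kdr in 8. The part of the cell types named here in the results below was not tested, and fewer cells of a type and less RNA per cell cannot be told apart.

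Signals below are the processed intensity scaled so that the 75th percentile of every array equals 526. Differences are log2 fold changes of miR-29 over control, from 3 arrays in each group. They come from limma with Benjamini-Hochberg adjustment over all 26427 tested probes and a threshold of 0.05. Testing required a signal well above background on every array of the miR-29 group, the control group or both (the detection filter). This left 10 of the 16 member probes, and all 10 were above background on all 6 arrays. They cover 7 genes, since no probe of Hapln1 or Has3 reached this level. Of the 10 probes 2 were lower, 1 was higher and 7 did not pass the test. Over all tested probes 23.5% were lower and 34% higher. The groups did not overlap for 3 member probes that were lower and 1 that was higher, against 27.2% and 38.6% of all tested probes. The median log2 fold change of the 10 probes was 0.060, and that of all tested probes was 0.061. Lower probes were thus about as frequent among the members as over the array by either count. Higher probes were 1 of 10 by either count, a smaller share than the 34% and 38.6% over the array. No test was made on these counts. The calls lay in Cd44, Has2 and 1 probe of Vcan.

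**Figure D1:**
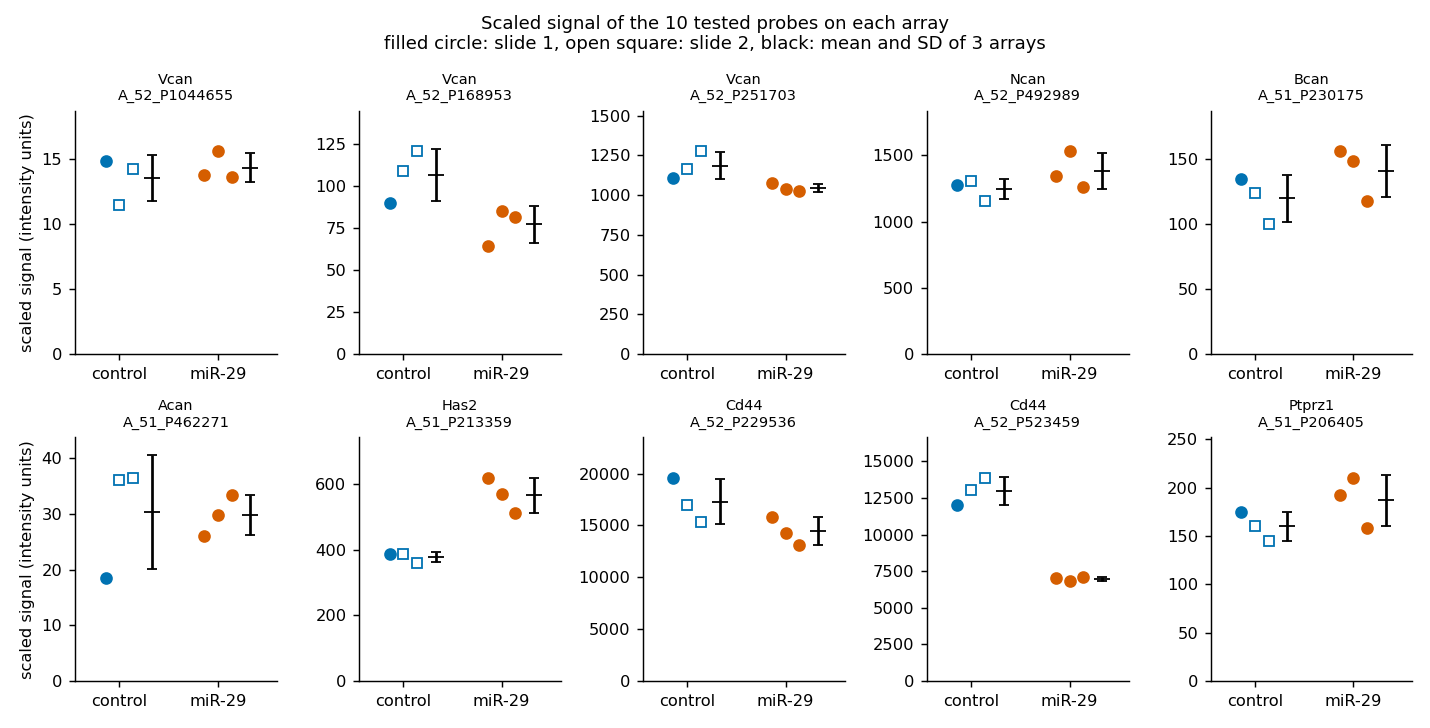
Scaled signal (vertical axis, intensity units, from 0) of each tested probe on the 3 control arrays (blue) and the 3 miR-29 arrays (orange), with the mean and SD in black; filled circles are arrays of slide 1 and open squares arrays of slide 2. The groups stand clearly apart for Has2 (510 to 618 against 359 to 387) and for Cd44 probe A_52_P523459 (6803 to 7068 against 12013 to 13856).

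Cd44, the main surface receptor for hyaluronan, gave the largest change. Its probe A_52_P523459 (accession NM_009851) read 7032, 6803 and 7068 after miR-29 and 12013, 13047 and 13856 in the controls. Every control array lay far above every miR-29 array. The log2 fold change was -0.89, with an SE of 0.0661 and an adjusted p of 0.000153, which is 1.86-fold lower, with a 95% interval of -1.06 to -0.73. Against control replicate 1, the only control array on the slide of the miR-29 arrays, the difference was -0.79, a value given without a test because that arm holds 1 array.

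This probe is printed in 10 spots on each array, which shows the measurement error within an array. A spot of control replicate 1 was marked as an outlier; it was left out of the values above and kept in the spread between spots. Over all 10 spots the coefficient of variation was 2.76% to 4.45%. Computed spot by spot, the log2 fold change ranged from -0.93 to -0.85. The SD between the control arrays was 0.108 on the log2 scale, against a mean SD between spots of 0.0527 and an SD of 0.030 between the miR-29 arrays. The fall was therefore larger than both the spread between spots and the spread between arrays.

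The other Cd44 probes did not give the same value. Probe A_52_P229536, assigned to the same accession, read 15829, 14280 and 13149 after miR-29 and 19562, 16985 and 15324 in the controls. The groups overlap, because miR-29 replicate 1 lies above control replicate 3. Its log2 fold change was -0.26 (SE 0.112, adjusted p = 0.0908; 95% interval -0.53 to 0.013). The value was negative in all 17 alternatives, from -0.50 to -0.17. It passed as lower in 7 of them, among them spike-in scaling (adjusted p = 0.00282) and quantile normalization (-0.35, adjusted p = 0.0191). The 7 include the fit blocked by slide, where the difference (-0.44) rests on control replicate 1. Within each array the difference between the log2 values of the 2 probes shifted by 0.64 between the groups (SE 0.181), and the groups did not overlap. The exact permutation test gave p = 0.1, the smallest that 3 against 3 arrays allow (two-sided; adjusted p = 0.2 over the 8 pairs compared). The third probe, A_51_P407053, did not rise well above background anywhere, at 7.42 to 10.5. The transcript forms these probes read were not analysed here. The call for the gene differed with the probe used: with the brighter probe Cd44 did not pass (-0.26, adjusted p = 0.093 over 19740 genes and transcripts), and with the mean of both it fell by 0.58 (SE 0.0547, adjusted p = 0.000407).

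**Figure D2:**
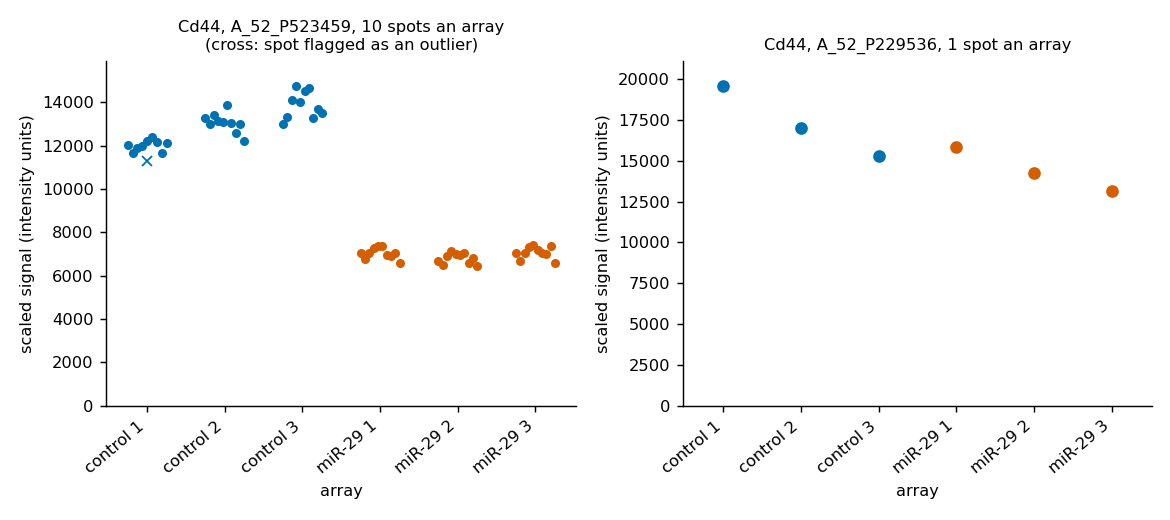
Scaled signal (vertical axis, intensity units, from 0) of the Cd44 probes by array (horizontal axis); left, every spot of A_52_P523459, with the outlier spot as a cross; right, the spot of A_52_P229536. The spots of A_52_P523459 span 6427 to 7414 after miR-29 and, the outlier included, 11286 to 14728 in the controls, while the groups overlap for A_52_P229536.

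Among all 13715 other named genes, the profiles nearest to that of Cd44 probe A_52_P523459 over the 6 arrays were those of Lyar, Sec23a and Trpc6. Likeness was the Euclidean distance between log2 values, each gene minus its mean, which was 0.060, 0.065 and 0.072. Their log2 fold changes were -0.88, -0.90 and -0.89. Genes picked for such short distances on the same 6 arrays must have like fold changes, so this likeness is not a separate result.

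Has2, the enzyme that makes long hyaluronan chains, rose. Its only probe, A_51_P213359 (NM_008216), read 618, 568 and 510 after miR-29 and 385, 387 and 359 in the controls. The lowest miR-29 array stood above the highest control array. The log2 fold change was 0.58 (SE 0.0825, adjusted p = 0.00169), or 1.495-fold higher with a 95% interval of 1.30 to 1.72. It passed under every alternative whose difference rests on more than 1 control array, at 0.34 with the arrays scaled to the spike-in RNAs. Against control replicate 1 alone the difference was 0.55. Of all tested probes 87.9% had a lower log2 fold change. Has3, another synthase, stayed below this level on all arrays. Its probe A_51_P398868 (NM_008217) read 1.98, 7.34 and 6.70 after miR-29 and 2.37, 5.71 and 1.84 in the controls, so no fold is given and the Has2 and Has3 changes could not be compared. Has1, the remaining synthase gene, had a probe that did not pass the detection filter.

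Vcan encodes versican, a lectican of growing and remodelled tissue, and had 4 probes with unlike results. The brightest, A_52_P251703 (NM_001081249), read 1076, 1040 and 1023 after miR-29 and 1110, 1167 and 1276 in the controls. All miR-29 arrays lay below all control arrays, but the difference was small: -0.18 (SE 0.0665, adjusted p = 0.061; 95% interval -0.34 to -0.015). It passed in 6 of 17 alternatives, among them spike-in scaling (-0.42, adjusted p = 0.01) and the fit without control replicate 1 (-0.22, adjusted p = 0.0227). It did not pass without control replicate 3 (-0.12, adjusted p = 0.159). Against control replicate 1 alone, the control array on the slide of the miR-29 arrays, the difference was -0.085. Control replicates 2 and 3, on slide 2, lay 0.137 above control replicate 1 for this probe.

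Probe A_52_P168953 (NM_172955) read 64.5, 85.1 and 81.6 after miR-29 and 90.0, 109 and 121 in the controls, again without overlap. It fell by 0.47 (SE 0.148, adjusted p = 0.0354). This call was lost in 8 of 17 alternatives. They include the fits blocked by slide and within slide 1, where the difference (-0.23) rests on control replicate 1, and 4 fits with an array left out. These gave -0.34 and -0.51 without replicates 1 and 3 of miR-29 (adjusted p = 0.088 and 0.0598), and -0.45 and -0.37 without replicates 2 and 3 of the control (adjusted p = 0.0911 and 0.101). Control replicates 2 and 3, on slide 2, lay 0.35 above control replicate 1, which shares its slide with the miR-29 arrays.

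The other Vcan probes were close to or below the detection limit, which in scaled signal was 8.76 to 11.1 on the arrays (the lowest value among probes well above background). A_52_P1044655 read 13.8, 15.6 and 13.6 against 14.8, 11.5 and 14.3 in the control arrays, a difference of 0.088 on the log2 scale (SE 0.114, adjusted p = 0.532). A_52_P131855 was not well above background, at 4.14 to 7.28. The 3 tested probes of the gene were set against each other within arrays. For A_52_P1044655 and A_52_P168953 the changes differed by 0.55 without overlap (SE 0.219, exact permutation p = 0.1, adjusted p = 0.2). The brightest probe overlapped with both of the others in this comparison (exact permutation p = 0.3 and 0.2).

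Ncan and Bcan encode neurocan and brevican, the lecticans found almost only in the nervous system, and neither passed the test. Ncan probe A_52_P492989 (NM_007789) read 1343, 1531 and 1264 after miR-29 and 1272, 1305 and 1157 in the controls. The miR-29 values reach higher, but the groups overlap. Its log2 fold change was 0.15 (SE 0.0894, adjusted p = 0.205), and the 95% interval of the fold ran from 0.951 to 1.29. Bcan probe A_51_P230175 (NM_007529) read 156, 148 and 118 against 135, 124 and 99.7. It had 0.24 (SE 0.15, adjusted p = 0.219; fold interval 0.914 to 1.52). Neither interval reaches a doubling or a halving. The signs of both depend on the scaling: with spike-in scaling Ncan had -0.094 and Bcan -0.0036. Single arrays also moved them: Ncan had 0.068 without miR-29 replicate 2, and Bcan had 0.11 without control replicate 3 and 0.36 without miR-29 replicate 3, none past the threshold. Against control replicate 1 alone, on the slide of the miR-29 arrays, Bcan had 0.051 and Ncan 0.11. With the replicate number as a block, although the numbers were not taken as pairs, Bcan passed (0.24, adjusted p = 0.0174).

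The lecticans were also compared with each other, as differences within each array between their brightest probes. The change of Vcan lay 0.32 below that of Ncan (SE 0.135), without overlap of the groups (exact permutation p = 0.1, adjusted p = 0.2). It lay 0.41 below that of Bcan (SE 0.216; exact permutation p = 0.2, with overlap). Ncan and Bcan differed by 0.090 (SE 0.13; exact permutation p = 0.6), less than their spread.

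Acan encodes aggrecan, the lectican of cartilage and of perineuronal nets, and its signal was low. Probe A_51_P462271 (NM_007424) read 26.1, 29.8 and 33.3 after miR-29 and 18.5, 36.1 and 36.4 in the controls. The control group itself spans a wider range than the miR-29 group. The log2 fold change was 0.032 (SE 0.277, adjusted p = 0.926), and the fold interval of 0.641 to 1.63 is the widest of the 10 probes. The value rests on control replicate 1: without it the log2 fold change was -0.29 (adjusted p = 0.0635). With the slide as a block, which sets the miR-29 arrays against that array, the log2 fold change was 0.68. It is given without a test because that arm is 1 array.

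The link protein gene Hapln1 was not detected. Its probes A_51_P101787 and A_52_P97258 (both NM_013500) gave no signal well above background. The first read 7.11, 7.53 and 5.39 after miR-29 and 5.44, 6.27 and 6.52 in the controls. The second read 7.89, 8.63 and 6.43 against 4.37, 4.72 and 4.03, below the detection limit throughout. No fold is given for either, and a comparison of Vcan with its link protein could not be made.

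Ptprz1, which binds pleiotrophin, midkine and neuronal adhesion molecules, did not pass the test. Its probe A_51_P206405 (NM_001081306) read 193, 210 and 158 after miR-29 and 175, 160 and 145 in the controls. The miR-29 group reaches higher and overlaps with the controls through replicate 3. The log2 fold change was 0.22 (SE 0.123, adjusted p = 0.171; fold interval 0.946 to 1.43), and it was -0.020 with spike-in scaling. Without miR-29 replicate 3 it passed (0.33, adjusted p = 0.0404). Against control replicate 1 alone, the control array on the slide of the miR-29 arrays, the difference was 0.087. Control replicates 2 and 3, on slide 2, stood at -0.197 relative to control replicate 1. The other Ptprz1 probe, A_52_P332486, was not well above background, at 1.94 to 4.86. Within arrays the brightest probe of Cd44 lay 0.48 below that of Ptprz1 in log2 change (SE 0.097), without overlap of the groups (exact permutation p = 0.1, adjusted p = 0.2).

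**Figure D3:**
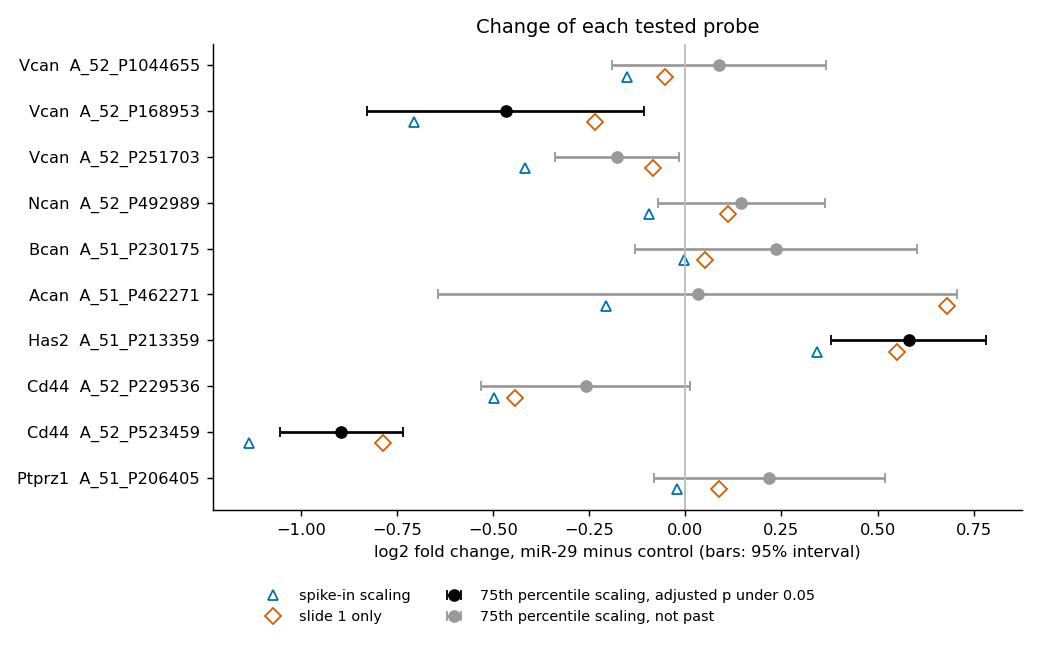
Log2 fold change, miR-29 minus control (horizontal axis), of each tested probe with its 95% interval; black marks probes past the threshold, triangles the values with spike-in scaling and diamonds those against the control array of slide 1. Cd44 probe A_52_P523459 lies at -0.89 and Has2 at 0.58, and both keep their side of 0 under both alternatives, while Ncan, Bcan and Ptprz1 lie below 0 with spike-in scaling.

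The genes that build, modify, bind and degrade this matrix were then counted, with the brightest probe of each gene. Of 72 listed genes 70 had a probe and 62 were tested: 22 were lower, 11 higher and 29 did not pass. Over all 13716 named genes tested, 25.3% were lower and 36.5% higher. The median log2 fold change was -0.090, against 0.060 over all named genes. With spike-in scaling, which moves the median of all probes by -0.24, 10163 of all 26427 tested probes were lower and 3947 higher. The counts for the listed genes were then 30 lower and 6 higher and the median -0.33. With the slide as a block, where the difference rests on control replicate 1, they were 20 and 8, with a median of -0.0097.

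Enzymes that assemble and sulfate chondroitin sulfate, the sugar chain that lecticans carry, formed the longest list. Of 20 tested 9 fell and 2 rose, and the median over the list was -0.23. Spike-in scaling gave 14 lower and 2 higher, where 10163 of all 26427 tested probes were lower and 3947 higher. Csgalnact1, among the 9, kept its call in 9 of 17 alternatives. Chst13, a chondroitin 4-O-sulfotransferase, fell by 1.41 (SE 0.0734, adjusted p = 5.45e-05), from 642 to 710 on the control arrays to 238 to 274 on the miR-29 arrays. Csgalnact2, which starts and extends the chain, fell by 1.23 (SE 0.0619) and Chst14, the dermatan 4-O-sulfotransferase, by 0.75 (SE 0.0487). The groups did not overlap for any of these 3 enzymes. Ust, the uronyl 2-sulfotransferase, rose by 1.04 (SE 0.104, adjusted p = 0.000443), while its other probe did not pass (0.58). Chpf2 and Dsel did not pass with their brightest probes. The other Chpf2 probe was lower (-0.78), and the other Dsel probes disagreed (-0.89, lower, and 0.60, higher).

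The machinery around hyaluronan went both ways. Of 12 hyaluronidases and hyaluronan-binding proteins 4 fell, 3 rose and 5 did not pass (4 lower and 2 higher with spike-in scaling). Among the 5 is Hyal3, whose other probe was higher (0.43, adjusted p = 0.00491). Hyal2, a hyaluronidase anchored at the cell surface, rose by 0.82 (SE 0.0744, adjusted p = 0.000311), from 7470 to 8830 on the control arrays to 13993 to 14154. Cemip, a protein needed for hyaluronan breakdown in other cells, was lower, at -0.82 (SE 0.092) and, with its other probe, -1.02. Itih5, a relative of the heavy chains that are coupled to hyaluronan, rose by 0.88 (SE 0.125) and Ptx3, which takes part in cross-linking them, fell by 0.69 (SE 0.071). Of 5 genes for the supply of sugar precursors 1 fell and 1 rose. Ugp2 did not pass with its brightest probe (-0.049), but its other probe was higher (0.49, adjusted p = 0.000437). Gfpt2, an enzyme of the hexosamine pathway that feeds hyaluronan synthesis, rose by 0.91 (SE 0.0456, adjusted p = 5.03e-05), and Slc35d1, a nucleotide-sugar transporter, fell by 0.44 (SE 0.0803).

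Of 5 tested proteases that cleave lecticans 2 fell and 1 rose. Adamts15 fell by 2.04 (SE 0.0676, adjusted p = 2.4e-05), with 127, 146 and 138 on the miR-29 arrays against 557, 585 and 547 on the control arrays. It is the largest change among the 62 tested genes, and the groups lie far apart. Adamts9 fell by 1.24 (SE 0.0603). Adamts4 rose by 0.36 (SE 0.093, adjusted p = 0.0176), but did not pass with spike-in scaling, with slides as blocks, or once replicate 2 or 3 of miR-29 or replicate 2 of the control was left out.

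Other receptors for hyaluronan and chondroitin sulfate fell or did not pass: 3 of 6 tested were lower and 0 higher (before adjustment, too, 0 were higher at p under 0.05). Hmmr, a hyaluronan-binding protein that also acts at the mitotic spindle, fell by 1.40 (SE 0.0612; adjusted p = 4.02e-05), but its other probe did not pass (-0.14). Ptprs and Ptprf, phosphatases of the LAR family, fell by 0.32 (SE 0.0477) and 0.19 (SE 0.0506), of which the Ptprf call was lost in 7 of 17 alternatives, among them leaving out replicate 2 or 3 of miR-29 or replicate 2 of the control. Among the other chondroitin sulfate proteoglycans Cspg4, the NG2 proteoglycan of oligodendrocyte precursors and pericytes, was lower, at -1.73 (SE 0.0942) and -1.08 with its second probe, and Cspg5 and Srgn did not pass. Of 3 tested genes for other link proteins and tenascins, by the brightest probe, Hapln3 passed, at -0.35 (SE 0.0956, adjusted p = 0.0208). For the tenascin gene Tnc the brightest probe did not pass (0.14), while its other probe was higher (0.35, adjusted p = 0.00346). Hapln3 did not pass in 7 of 17 alternatives, among them leaving out replicate 1 or 2 of miR-29 or replicate 2 or 3 of the control.

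Of the PTPRZ1 ligands and CD44 linkers 4 of 8 rose, 1 fell and 3 did not pass. With spike-in scaling 1 was higher and 2 lower, where 3947 of all 26427 tested probes were higher and 10163 lower. Among the 4 is the CD44 linker gene Rdx, at 0.16 (adjusted p = 0.0458), which kept its call in 3 of 17 alternatives. Its dimmer probe was also higher (0.38, adjusted p = 0.0109). Ezr and Msn encode ezrin and moesin, which tie CD44 to the actin cortex, and moved in opposite directions. Ezr read 32230, 32251 and 31759 after miR-29 and 17873, 15687 and 15372 in the controls, and rose by 0.98 (SE 0.0701, adjusted p = 0.000137). Msn fell by 0.60 (SE 0.122, adjusted p = 0.00673), as did its other probes (-0.64 and -0.37), although it did not pass with slides as blocks. The ligand gene Mdk rose by 0.28 (SE 0.0508) and by 0.53 with its other probe, the first being 0.043 under spike-in scaling. Nrcam rose by 0.44 with its dimmer probe (adjusted p = 0.00116), and its brightest probe had 0.19, which turned to -0.053 there and did not pass in 11 of 17 alternatives, among them leaving out any array but control replicate 1.

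**Figure D4:**
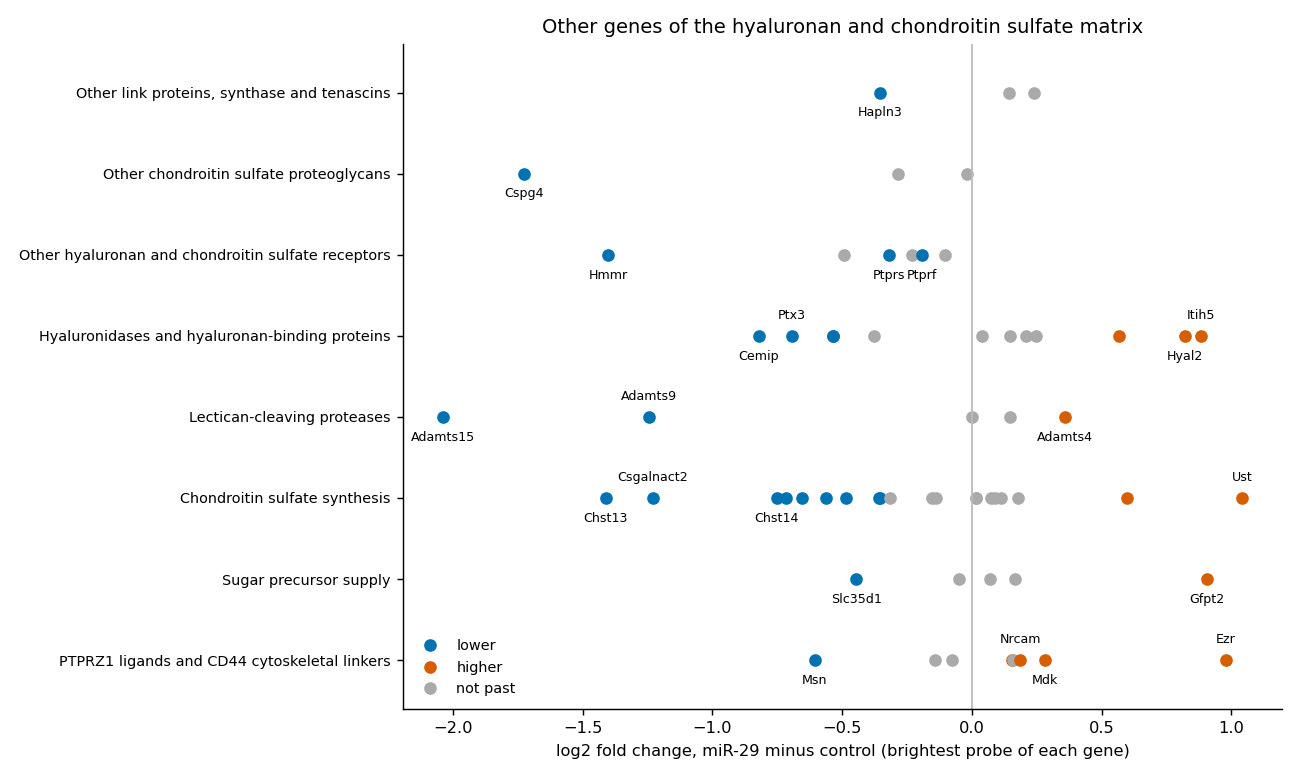
Log2 fold change, miR-29 minus control (horizontal axis), of the 62 tested partner genes, 1 point per gene in its role group; blue is lower, orange higher and grey not past the threshold. Adamts15 at -2.04 and Cspg4 at -1.73 lie farthest to the left, and Ust at 1.04 and Ezr at 0.98 farthest to the right.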

How the data were processed

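The 6 arrays of 3 miR-29 and 3 control extractions were scanned once each. Per the file headers, Feature Extraction 10.7.3.1 from Agilent made the deposited intensity of each spot, background-subtracted and linear. The deposited value table holds the same intensity times a constant of 2.63 to 3.43 per array. Column medians were 149.3, 155.4 and 148.8 for miR-29, with 146.3, 164.8 and 162.2 for control; how the constant was chosen stays unknown. It held 0 columns of other samples.

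Values were log2 of the processed signal (floor 1), less each array's 75th percentile. Control and outlier spots were left out and spots of a probe averaged. Probes were named through RefSeq accessions: 26933 matched 1 gene and 14241 none or several. The array design is on another build than the reference, so no gene coordinates are given. limma 3.58.1 (lmFit, then eBayes) was run under R 4.3.3 and tested on simulated data. Alternatives changed the background, scaling, filter, variance model, slide, pairing, probe choice and replicates. Normexp used median spot signals. Members and lists were chosen with earlier results of these data known. Named partner genes are up to 4 per role with the largest change past the threshold. Arrays with the same replicate number deviated together with r of 0.143, 0.099 and 0.271 across probes, each the best match of its miR-29 array. The labels state no pairing and these values were low, so the numbers were not taken as pairs. Pairing was thus not excluded, and the fit with the replicate number as a block is given below. The number of arrays limits the precision.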

Additional observations from a re-analysis of the deposited data

How the results depend on the processing

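Cd44 probe A_52_P523459 (-1.13 to -0.79) and Has2 (0.34 to 0.65) kept their direction in all 17 alternatives. They kept their call in each where the difference rests on more than 1 control array. Within slide 1 the control arm is 1 array, assumed to vary like the others. With the slide as a block the difference rests on that same array. Calls in both fits say nothing about stability, although the counts out of 17 alternatives include them. The other member calls depended on the settings; the cause was not tested. With 2 member probes lower and 1 higher as reported, 4 were lower with quantile normalization, with spike-in scaling, with the deposited table and with an intensity trend, and 1 without a filter and within slide 1. With the slide as a block or within slide 1, 2 were higher. Leaving out 1 array gave 1 to 3 lower (1 without miR-29 replicate 1 or 3 or control replicate 2 or 3) and 1 to 2 higher (2 without miR-29 replicate 3). Over all probes 6205 were lower and 8993 higher, which became 10163 and 3947 with spike-in scaling. Of the partner genes 6 were higher with spike-in scaling, 7 within slide 1 and 7 to 13 with an array left out (7 without miR-29 replicate 2 or control replicate 2). The sign turned with spike-in scaling for Ptprz1 (-0.020), Bcan (-0.0036), Acan (-0.21), Vcan probe A_52_P1044655 (-0.15) and Ncan (-0.094), none of them called. Acan also had -0.010 in the deposited table and -0.29 to 0.20 with an array left out, and Vcan A_52_P1044655 had -0.054 with the slide as a block or within slide 1 and -0.026 to 0.16 with an array left out. With the replicate number as a block (replicate block) 2 member probes were higher, Bcan among them (adjusted p = 0.0174), and Cd44 A_52_P229536 passed (-0.26, adjusted p = 0.015). Each miR-29 array correlated best with the control array of its own number. Signal near background limits Acan and the dim Vcan probes.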
